A study of Mus musculus with 6 samples.

Results

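The 10 genes described here are general markers of endothelium, the cell layer that lines blood vessels and, as endocardium, the chambers of the heart. They were chosen by name, as the rows of the deposited count table whose gene symbol is Cdh5, Pecam1, Cldn5, Esam, Cd34, Emcn, Erg, Fli1, Egfl7 or Eng. All 10 symbols were found, 1 row each, among 45792 rows, and all 10 were among the 17125 genes with enough counts to be tested. The measure was RNA-seq of whole hearts at embryonic day 13.5, which asked how gene expression differs when the chromatin remodeller Ino80 is deleted from endothelial cells. There were 3 control hearts, whose labels give the genotype as wild-type, and 3 mutant hearts labelled Tie2Cre INO80 flox/flox. The study describes its control embryos more broadly, as any genotype of the crosses other than the mutant one, so a control-labelled heart may carry Tie2Cre or a flox allele. The labels give the strain as C57BL/6 for every heart. The study's methods also list other stocks and describe the transgenic mice as of mixed background. Tie2Cre is active in endothelium and endocardium and also in blood cells, so most cells of a mutant heart, its cardiomyocytes among them, are not meant to lose Ino80. Nothing in the labels says which litter a heart came from. The study states, for its experiments in general, that mutants came from multiple litters and that controls were their littermates. The tests here were unpaired, and their p-values weigh the difference between groups against the spread between these hearts.

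Endothelial cells hold to one another through adherens junctions built on VE-cadherin and tight junctions built on claudins, with immunoglobulin-like adhesion molecules beside them. Sialomucins coat the surface that faces the blood, endoglin serves as a co-receptor for ligands of the TGF-beta and BMP family, and ETS transcription factors keep the endothelial programme switched on. In the heart these genes are shared, though not all evenly, by the endocardium and the coronary vessels. These vessels are still spreading over the ventricles at this age.

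Total counts ran from 28.9 to 89.7 M per heart, with mutant replicate 1 the deepest, and the 10 genes had between 496 and 24144 counts in a heart. Ino80 itself, at 31.5 ± 1.26 counts per M (CPM, scaled by TMM; mean ± SD, n = 3) in the control hearts and 34.0 ± 2.35 in the mutant hearts, did not separate the labels (log2 fold change 0.11, SE 0.08, edgeR adjusted p = 0.47). The counts cover the whole gene and every cell of the heart, so they do not check the deletion in endothelium, and the hearts are named by label, as control-labelled or mutant-labelled, or for short controls and mutants. Beside the 10 endothelial genes, cardiomyocyte markers summed to between 18370 and 23090 CPM in a heart. Markers of red blood cells summed to between 4561 and 18410 CPM among controls and to between 3535 and 6120 CPM in the mutant-labelled ones.

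None of the 10 genes passed the edgeR test between the groups. VE-cadherin, endoglin, endomucin and Erg differed by less than 0.05 on the log2 scale. Esam, Cd34 and Fli1 were lower in every mutant-labelled heart than in any control-labelled heart, by 20.4%, 22.9% and 14.0% of the control mean, and no gene was higher in every mutant-labelled heart. By edgeR's quasi-likelihood test at an adjusted p under 0.05, 0 of the 10 were called lower and 0 higher, against 0% of all tested genes in either direction, whose smallest adjusted p was 0.053. Without control-labelled replicate 1, that test called 751 genes, Cd34 among them. At an unadjusted p under 0.05, 3 of the 10 were lower, against 9.98% of all tested genes, and 0 were higher, against 9.48%. DESeq2 called 2 of the 10 lower at its adjusted p, Esam and Cd34, against 3.26% of its 17318 genes, and 0 higher, against 2.52%. Mutant-labelled hearts lay wholly below control-labelled hearts in 12.8% of all tested genes and wholly above in 14.3%. The median log2 fold change of the 10 was -0.04, against -0.002 over all tested genes. In whole hearts, fewer endothelial cells and less of an RNA per endothelial cell cannot be told apart.

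**Figure D1:**
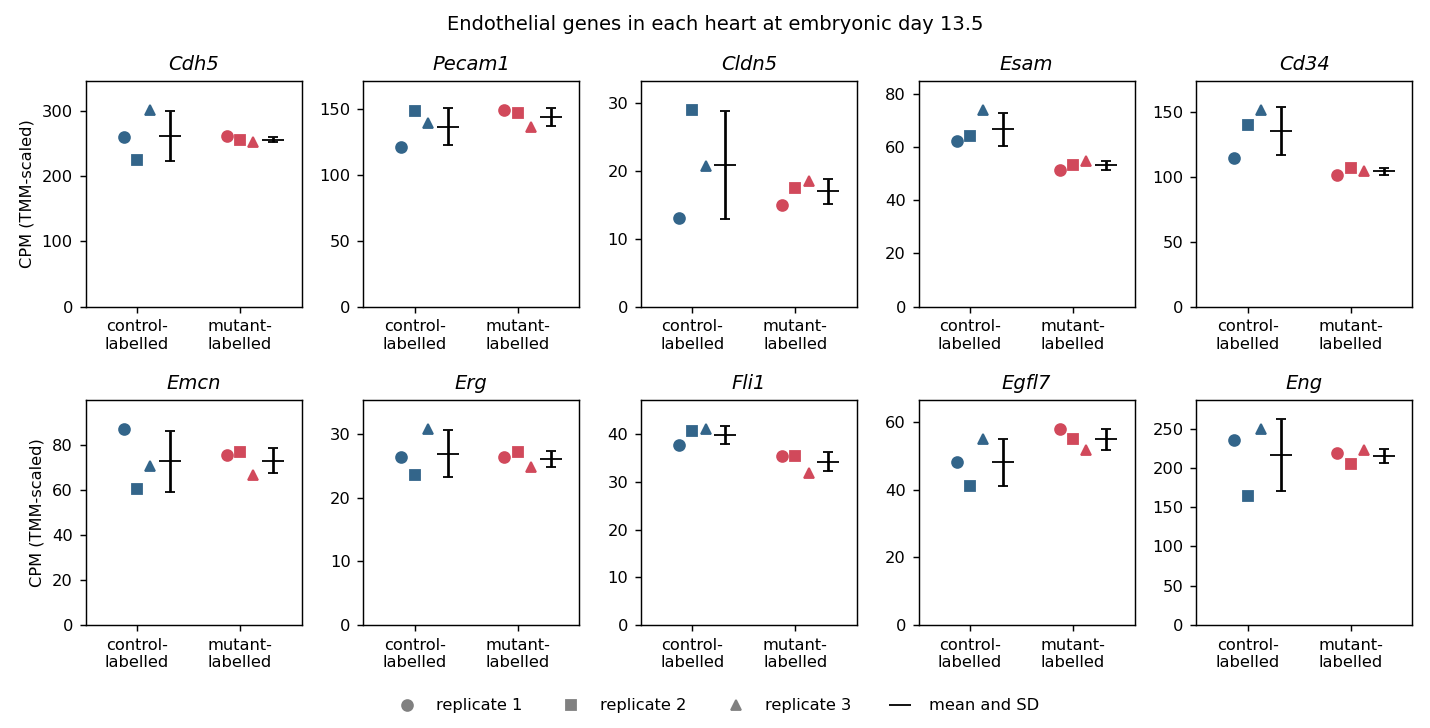
Level of each of the 10 endothelial genes (vertical axis, TMM-scaled CPM, starting at 0) in the 3 control-labelled and 3 mutant-labelled hearts, 1 point a heart with its shape giving the replicate, and bars for the mean and SD. Esam, Cd34 and Fli1 show no overlap between the groups, and control-labelled hearts are more widely spread than mutant-labelled ones for every gene except Fli1.

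**Figure D2:**
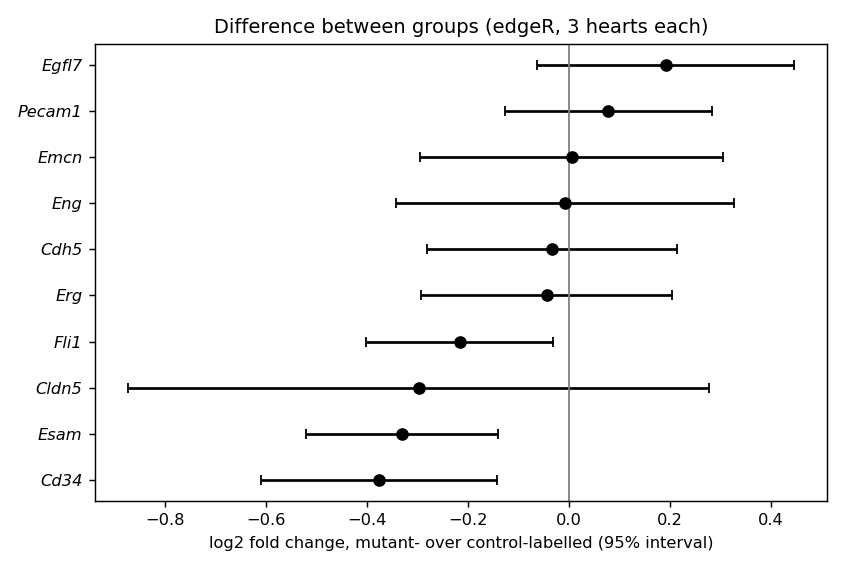
Log2 fold change of each gene, mutant-labelled over control-labelled hearts (horizontal axis), from edgeR with its 95% interval (3 hearts a group). The intervals of Cd34, Esam and Fli1 lie below 0 before adjustment for the number of genes tested, and the other 7 span 0.

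Among the junction genes, Cdh5 (ENSMUSG00000031871.8; chromosome 8, 104101625 to 104144511 in GRCm38, plus strand) encodes VE-cadherin, the cadherin of endothelial adherens junctions. Replicates 1 to 3 read 260.1, 225 and 301 CPM among controls and 261, 255 and 252 CPM among mutants. All mutant-labelled hearts lay inside the control range, with group means of 262 ± 38.0 and 256 ± 4.47 CPM (SD, n = 3). The log2 fold change was -0.03 (SE 0.11, 95% interval -0.28 to 0.22, edgeR adjusted p = 0.89). The sign of the change turned with single control-labelled hearts, from -0.13 without replicate 2 to 0.08 without replicate 3.

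Pecam1 (ENSMUSG00000020717.17; chromosome 11, 106654217 to 106750628, minus strand) encodes CD31, an immunoglobulin-family adhesion molecule of endothelial contacts that platelets and leukocytes also carry. The control-labelled hearts read 121, 149 and 139.5 CPM and the mutant-labelled hearts 149, 147 and 136 CPM. The groups overlapped, and only control-labelled replicate 1 stood below the others. Its group means differed by 0.08 on the log2 scale (SE 0.09, edgeR adjusted p = 0.65), and by 0.00 without control-labelled replicate 1.

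Cldn5 (ENSMUSG00000041378.1; chromosome 16, 18776847 to 18778262, plus strand), the claudin of endothelial tight junctions, varied most. Its control-labelled hearts read 13.03, 28.9 and 20.7 CPM, a range that took in all 3 mutant-labelled hearts at 14.9, 17.4 and 18.6 CPM. The highest and the lowest of the 6 values were thus both controls, and the SD was 38.0% of the mean in that group against 10.9% in the mutant-labelled hearts. The log2 fold change of -0.30 had a 95% interval of -0.87 to 0.28 (edgeR adjusted p = 0.53). It was -0.55 without control-labelled replicate 1 and 0.01 without control-labelled replicate 2.

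Esam (ENSMUSG00000001946.11; chromosome 9, 37528078 to 37538319, plus strand) encodes an immunoglobulin-family molecule that sits near endothelial tight junctions and is also carried by platelets. Controls held 62.2, 64.1 and 73.7 CPM of it and mutants 51.2, 53.4 and 54.6 CPM. The lowest control-labelled heart stood above the highest mutant-labelled heart. This gave a log2 fold change of -0.33 (SE 0.08, 95% interval -0.52 to -0.14), an edgeR adjusted p of 0.11 and a DESeq2 adjusted p of 0.028, so the call differs between the tools. Leaving out single hearts kept the log2 fold change between -0.38 and -0.25.

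Cd34 (ENSMUSG00000016494.7; chromosome 1, 194938819 to 194961279, plus strand) is a sialomucin of endothelial cells and of blood progenitors. The control-labelled hearts read 115, 139 and 151 CPM and the mutant-labelled hearts 101, 107 and 104 CPM, with means of 135 ± 18.5 and 104 ± 2.83 CPM. The groups did not overlap, although control-labelled replicate 1 lay nearer to the mutant-labelled hearts than to replicates 2 and 3. Cd34 thus had a log2 fold change of -0.38 (SE 0.10, 95% interval -0.61 to -0.14), with an edgeR adjusted p of 0.13 and a DESeq2 adjusted p of 0.028. Without control-labelled replicate 1 it was -0.48, with an edgeR adjusted p of 0.0196, and Cd34 was then the 1 member called. The antisense gene Gm16897 shares 148 exon bases with it, 2.0% of its exons.

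Emcn (ENSMUSG00000054690.15; chromosome 3, 137341067 to 137432185, plus strand), endomucin, is a sialomucin of veins, capillaries and endocardium. The study stained for endomucin protein to mark endocardium, so Emcn is not an even measure of all endothelium. Emcn read 86.9, 60.2 and 70.6 CPM among controls and 75.2, 76.9 and 66.5 CPM among mutants. Control-labelled replicates held both the highest and the lowest value. Its log2 fold change was 0.01 (SE 0.13, 95% interval -0.29 to 0.31, edgeR adjusted p = 0.99), and it moved from -0.11 without control-labelled replicate 2 to 0.16 without control-labelled replicate 1.

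Eng (ENSMUSG00000026814.14; chromosome 2, 32646595 to 32682669, plus strand) encodes endoglin. The control-labelled hearts read 236, 165 and 249.7 CPM and the mutant-labelled hearts 219, 205 and 223 CPM. Control-labelled replicate 2 was the lowest of the 6 and the 2 others of its group were the highest. The log2 fold change was -0.01 (SE 0.15, 95% interval -0.34 to 0.33, edgeR adjusted p = 0.99). Opposite-strand gene Fpgs shares 61 exon bases with it, 1.5% of Eng's exons, and strand was not stated for the counting.

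Egfl7 (ENSMUSG00000026921.16; chromosome 2, 26580014 to 26593120, plus strand) encodes a protein that endothelial cells secrete, and the gene hosts the microRNA miR-126 in an intron. It was the member with the highest fold change: 48.4, 41.0 and 55.1 CPM among controls against 58.0, 55.0 and 51.9 CPM among mutants. The groups overlapped, since control-labelled replicate 3 stood above mutant-labelled replicates 2 and 3. For Egfl7 the log2 fold change was 0.19 (SE 0.11, 95% interval -0.06 to 0.45, edgeR adjusted p = 0.37). Without control-labelled replicate 3 it was 0.30 and 1 member, Egfl7, was higher at an unadjusted p under 0.05 (edgeR adjusted p = 0.24). Other genes share up to 264 of its 3581 exon bases, 7.4%.

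The pair of ETS factors, Erg and Fli1, gave different values. Erg (ENSMUSG00000040732.16; chromosome 16, 95359169 to 95586593, minus strand), which keeps endothelial cells in their state, read 26.5, 23.6 and 30.9 CPM among controls and 26.4, 27.2 and 24.9 CPM among mutants. All mutant-labelled hearts lay inside the control range, and the groups differed by -0.04 on the log2 scale (SE 0.11, edgeR adjusted p = 0.85). Fli1 (ENSMUSG00000016087.11; chromosome 9, 32422204 to 32542861, minus strand), its close relative, is also active in megakaryocytes. Controls held 37.6, 40.7 and 41.1 CPM of it and mutants 35.5, 35.4 and 31.9 CPM. The groups did not overlap, but the nearest values were 37.6 and 35.5 CPM. The log2 fold change was -0.22 (SE 0.08, 95% interval -0.40 to -0.03), with an edgeR adjusted p of 0.20 and a DESeq2 adjusted p of 0.22.

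Promoter sequence gives context for the ETS factors, whose shared core is GGAA. Of the 10 genes, 6 matched the RefSeq windows used here, in 10 windows of 250 bases before and 50 after a start. The core, on either strand, was in 9 of those 10 windows and in 96.0% of all 32851 windows, so its presence does not set these genes apart. The longer AGGAAG was in 6 of the 10 and in 35.4% of all windows, and CCGGAAG in 0 of the 10 and in 8.9% of all windows. Egfl7 and Erg gave several windows each, so the 10 are not separate genes, and these shares were not tested. The Cldn5 window held no GGAA on either strand. The 250 bases before the start are shown for Cd34, whose levels did not overlap between groups, and for Egfl7 and Cldn5. Egfl7, shown at the most 5′ of its windows, had the highest fold change, and Cldn5 held no match. The sequences run 5′ to 3′ on the plus strand of GRCm38.p6, from RefSeq, with GGAA and its reverse complement TTCC in capitals. Their positions, in that order, are chr1:194938571-194938820, chr2:26580833-26581082 and chr16:18776597-18776846.
Cd34: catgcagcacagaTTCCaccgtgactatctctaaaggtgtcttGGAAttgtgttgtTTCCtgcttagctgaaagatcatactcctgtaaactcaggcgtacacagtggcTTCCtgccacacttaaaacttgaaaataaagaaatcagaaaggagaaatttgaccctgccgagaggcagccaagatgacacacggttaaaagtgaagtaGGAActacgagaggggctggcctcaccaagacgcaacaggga
Egfl7: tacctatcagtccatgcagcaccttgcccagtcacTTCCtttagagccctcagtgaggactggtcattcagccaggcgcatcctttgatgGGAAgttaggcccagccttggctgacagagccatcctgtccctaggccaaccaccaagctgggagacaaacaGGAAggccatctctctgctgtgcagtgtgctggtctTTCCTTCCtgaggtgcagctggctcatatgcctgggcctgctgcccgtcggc
Cldn5: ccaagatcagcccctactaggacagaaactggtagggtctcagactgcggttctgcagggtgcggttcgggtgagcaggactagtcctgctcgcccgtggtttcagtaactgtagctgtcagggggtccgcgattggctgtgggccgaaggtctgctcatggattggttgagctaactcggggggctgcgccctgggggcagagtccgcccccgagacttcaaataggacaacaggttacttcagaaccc
Cd34 and Egfl7 each hold 5 matches in these 250 bases, and a match of such letters is a description of sequence, not a bound site.

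Compared per length, in CPM per kb of exon, Cdh5 led at 62.4 ± 9.04 in the control-labelled hearts and 61.0 ± 1.06 in the mutant-labelled hearts, and Eng followed at 53.5 ± 11.3 and 53.3 ± 2.24. The remaining genes lay between 7.78 and 23.3 CPM per kb in the control-labelled hearts. In that group the order was Cdh5, Eng, Esam, Pecam1, Cd34, Cldn5, Egfl7, Emcn, Fli1 and Erg. The lengths count all annotated exons of a gene, whichever transcripts the hearts hold, which can move a gene in this order. Neighbours in this order overlapped over the control-labelled hearts except Eng above Esam and Fli1 above Erg. Cdh5 was above Eng in all 6 hearts, while Esam was above Pecam1 in 2 of the 6.

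Each gene was also set against Cdh5 in the same heart, as log2 of the ratio of counts, a scale that the library scaling cannot move. Esam stood at -1.97 ± 0.14 (SD, n = 3) in the control-labelled hearts and at -2.27 ± 0.07 in the mutant-labelled hearts, a difference of -0.30. Cd34 stood at -0.96 ± 0.25 and -1.30 ± 0.06, a difference of -0.34. Both were lower in every mutant-labelled heart, as 20.7 Esam counts to 100 of Cdh5 against 25.5, and 40.6 Cd34 counts against 51.5. Egfl7 went the other way, at -2.43, -2.46 and -2.45 in the control-labelled hearts and -2.17, -2.21 and -2.28 in the mutant-labelled hearts, a difference of 0.22. These 3 of the 9 ratios did not overlap between groups. The exact two-sided permutation test gave p = 0.1 for each, the smallest that 3 against 3 hearts allow (0.30 adjusted over 9 ratios). The share of all genes that separate on this scale was not computed. In CPM, 12.8% of all tested genes lay wholly below and 14.3% wholly above. Fli1, whose groups did not overlap in CPM, overlapped on this scale (difference -0.20, exact permutation p = 0.2). Erg held the narrowest ratio of all, between 9.8 and 10.7 counts to 100 of Cdh5 over the 6 hearts. Its difference was -0.01 (exact permutation p = 0.8). Cldn5 held the widest, between 5.0 and 12.8 counts to 100 (exact permutation p = 0.8).

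**Figure D3:**
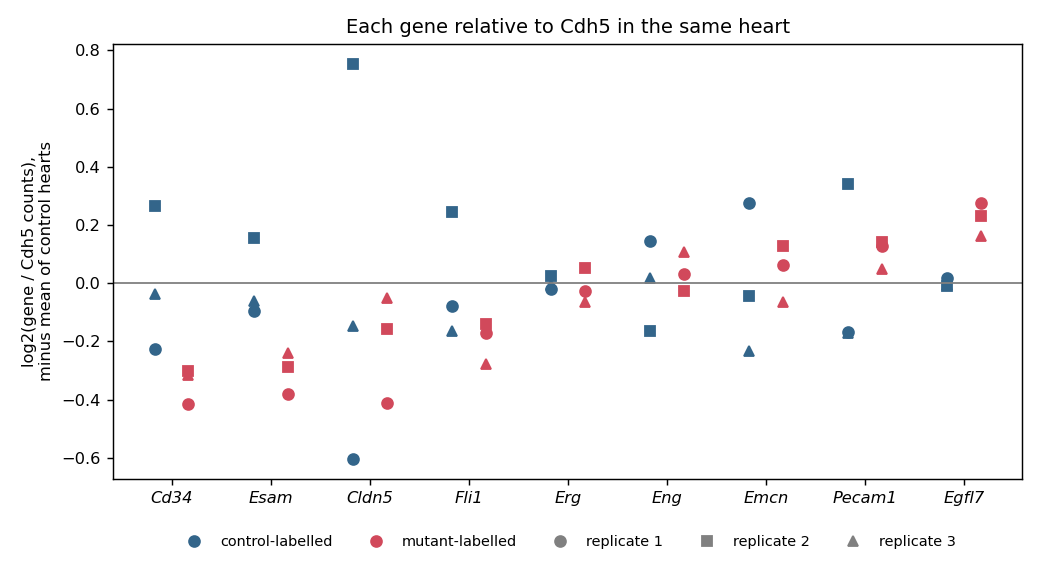
Log2 of each gene's counts over those of Cdh5 in the same heart, minus the mean of the control-labelled hearts (vertical axis), for the other 9 genes, 1 point a heart, with color giving the group and shape the replicate. Cd34 and Esam lie below the control-labelled hearts in all 3 mutant-labelled hearts and Egfl7 above, while Erg stays close to 0 in all 6.

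Single control-labelled hearts stood at the extremes of most genes. Control-labelled replicate 3 held the highest value of 6 of the 10 genes, and control-labelled replicate 2 the lowest of 5: Cdh5, Emcn, Erg, Egfl7 and Eng. Replicate 2 also held the highest Cldn5. The summed level of the 10 genes was 1006, 936 and 1133 CPM among controls and 991, 979.6 and 964 CPM among mutants. The mutant-labelled hearts lay close together, and the coefficient of variation was the smaller in that group for 9 of the 10 genes, against 62.5% of all tested genes. Over the 6 hearts, where all genes of a heart come from 1 library, Cdh5 and Erg moved most alike (Pearson r = 0.95, as a description), followed by Esam and Cd34 (r = 0.95) and Cdh5 and Eng (r = 0.89). Cldn5 went against Emcn (r = -0.92). The median r of the 45 pairs was 0.16. Among 10170 genes of at least 10 CPM, those most like the mean of the 10 were Epb4.1, BC004004, Ppard, Abcc9 and Fndc1 (r of 0.97 to 0.99). Picking the highest r of so many genes over 6 hearts by itself gives high values. Each was highest in control-labelled replicate 3, where the mean of the 10 stood 0.17 above its own average (log2 scale). In the other hearts that mean deviated by -0.07 to -0.01.

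**Figure D4:**
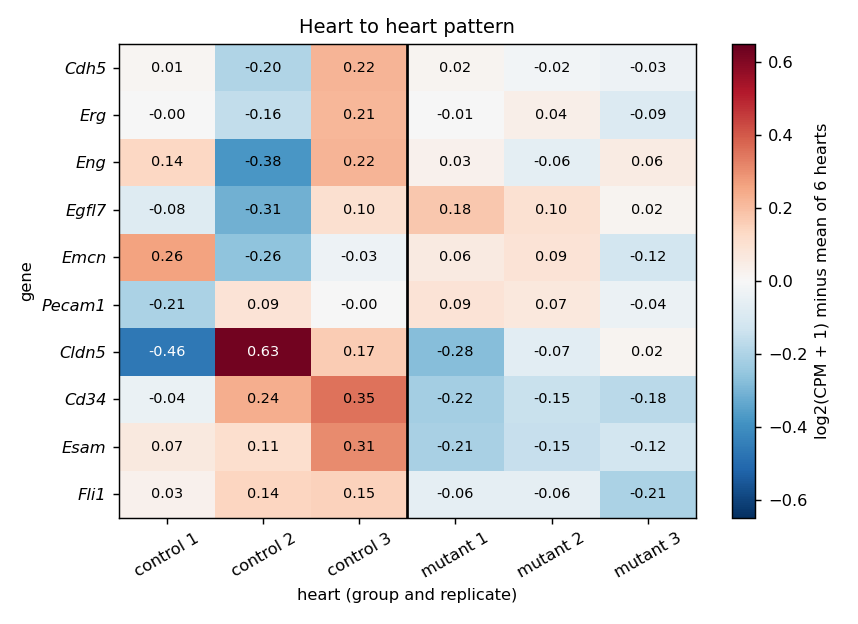
Log2(CPM + 1) of each gene in each heart minus the mean of the 6 hearts, as color and as the number in the cell, with genes in rows and hearts in columns. Cdh5, Erg, Eng, Egfl7 and Emcn are lowest in control-labelled replicate 2, while Cd34, Esam and Fli1 are below their mean in all 3 mutant-labelled hearts.

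Among genes that work with them, and in the marker lists, edgeR called 0 at an adjusted p under 0.05. DESeq2 called 5 of 8 capillary markers lower, 1 gene higher among the junction partners and 1 higher among the cardiomyocyte markers. It called 1 gene lower in each of the surface, transcription factor and lymphatic lists. Over all its genes, DESeq2 called 3.26% lower and 2.52% higher. At an unadjusted p under 0.05, edgeR had 9.98% of all tested genes lower and 9.48% higher. The list counts here and below are to be read beside these shares. All lists were drawn up with earlier results of these hearts known. Of 25 junction partners, 12 were higher and 13 lower, with 2 and 3 at an unadjusted p under 0.05 and a median log2 fold change of -0.002. Beta-catenin (Ctnnb1), which binds VE-cadherin, had a log2 fold change of -0.002, and alpha-catenin (Ctnna1) one of -0.23. Gja5, the gap junction gene connexin 40, which trabecular myocardium carries as well as arterial endothelium, read 115 ± 24.4 CPM among controls and 168 ± 9.73 in the mutant-labelled hearts, higher in all 3, with a log2 fold change of 0.55 (edgeR adjusted p = 0.12, DESeq2 adjusted p = 0.0073). The tight junction protein gene Tjp1 (ZO-1) had -0.06.

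The surface list held 25 other endothelial genes, mostly but not all of the cell surface. Of these, 9 were higher and 16 lower, with a median of -0.07. At an unadjusted p under 0.05, 0 were higher, against 9.48% of all tested genes, and 4 lower, against 9.98%. The VEGF and semaphorin co-receptor Nrp2 read 49.2 ± 4.09 and 35.1 ± 4.62 CPM, lower in all 3 mutant-labelled hearts (log2 fold change -0.48, edgeR adjusted p = 0.10, DESeq2 adjusted p = 0.0074). Of 22 endothelial transcription factors, 21 were tested, with 10 higher and 11 lower and a median of -0.01. At an unadjusted p under 0.05, 5 of them were higher (Etv6, Tal1, Foxc1, Foxc2 and Nr2f2), against 9.48% of all tested genes. By the same rule 3 were lower (Ets2, Elf1 and Sox18), against 9.98%. Leaving out mutant-labelled replicates 1, 2 and 3 in turn changed these 8 to 3, 1 and 4, and leaving out control-labelled replicates 1, 2 and 3 changed them to 9, 6 and 4. The ETS factor Ets2 read 155 ± 15.9 CPM among controls and 116 ± 1.73 in the mutant-labelled hearts (log2 fold change -0.42, edgeR adjusted p = 0.083, DESeq2 adjusted p = 0.0025). Ets1 differed by 0.05. Which cells the RNA of these factors came from was not tested, and the study marked pericytes by COUP-TF2, the protein of Nr2f2.

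Genes listed as markers of particular endothelial compartments gave these values beside the 10 general ones. In whole hearts, RNA of these genes may also come from other cells, and its source was not tested. The 8 capillary markers were all lower, 5 of them at an unadjusted p under 0.05, against 9.98% of all tested genes. Their median log2 fold change was -0.94. They summed to between 727 and 946 CPM among controls and between 523 and 573 CPM in the mutant-labelled ones. The 8 endocardial markers were all higher, 1 at an unadjusted p under 0.05, against 9.48% of all tested genes, with a median of 0.34. Their summed level was 824, 568 and 698 CPM against 901, 839 and 837 CPM. Gata4 was the largest single part of these sums, at 243 ± 5.41 and 258 ± 9.93 CPM (log2 fold change 0.09). Cd36, a fatty acid transporter, read 292 ± 46.4 and 155 ± 22.6 CPM (log2 fold change -0.92, edgeR adjusted p = 0.065, DESeq2 adjusted p = 1.3e-07). The count of endocardial markers at an unadjusted p under 0.05 was 6 without control-labelled replicate 1 and 4 by DESeq2. Both lists were drawn up with results of these hearts in view, and whether they differ from the 10 genes was not tested. Of 13 blood and platelet markers, 5 were higher and 8 lower, summing to between 70.5 and 97.3 CPM among controls and 85.5 and 92.6 CPM in the mutant-labelled hearts. Those of platelets stood at single CPM: Itga2b, the platelet integrin alpha IIb, read 6.01 and 6.36 CPM on average, and the platelet factor Pf4 read 4.14 and 3.50 CPM, against 66.7 and 53.0 CPM for Esam. Their part in the levels of Esam, Cd34, Fli1 and Pecam1, which blood cells or platelets also carry, was not tested. Of 5 lymphatic markers, 2 were higher and 3 lower, with 2 lower at an unadjusted p under 0.05 and a median of -0.17. The highest in level of the 5, Prox1, read 109 ± 4.35 and 114 ± 6.76 CPM. The study marked cardiomyocytes by the PROX1 protein, so Prox1 is not particular to lymphatic cells in these hearts. Ccl21a, a chemokine of lymphatic endothelium, has near-identical gene copies that make its counts uncertain. It read 8.83 ± 4.10 and 1.001 ± 0.83 CPM (log2 fold change -3.19, edgeR adjusted p = 0.083, DESeq2 adjusted p = 0.0035). Of 6 red blood cell markers, 5 were lower, 3 at an unadjusted p under 0.05, with a median of -1.19. The sixth, the embryonic globin Hbb-y, went the other way, at 217 ± 212 and 1043 ± 212 CPM, higher in all 3 mutant-labelled hearts (log2 fold change 2.26, edgeR adjusted p = 0.15, DESeq2 adjusted p = 0.084). Of 7 cardiomyocyte markers 6 were lower, 1 at an unadjusted p under 0.05, with a median of -0.22. The other one, the myosin heavy chain gene Myh6, was higher in all 3 mutant-labelled hearts, at 1382 ± 271 and 1925 ± 261 CPM (log2 fold change 0.48, edgeR adjusted p = 0.18, DESeq2 adjusted p = 0.040). Of 4 liver markers, 1 had enough counts to be tested.

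**Figure D5:**
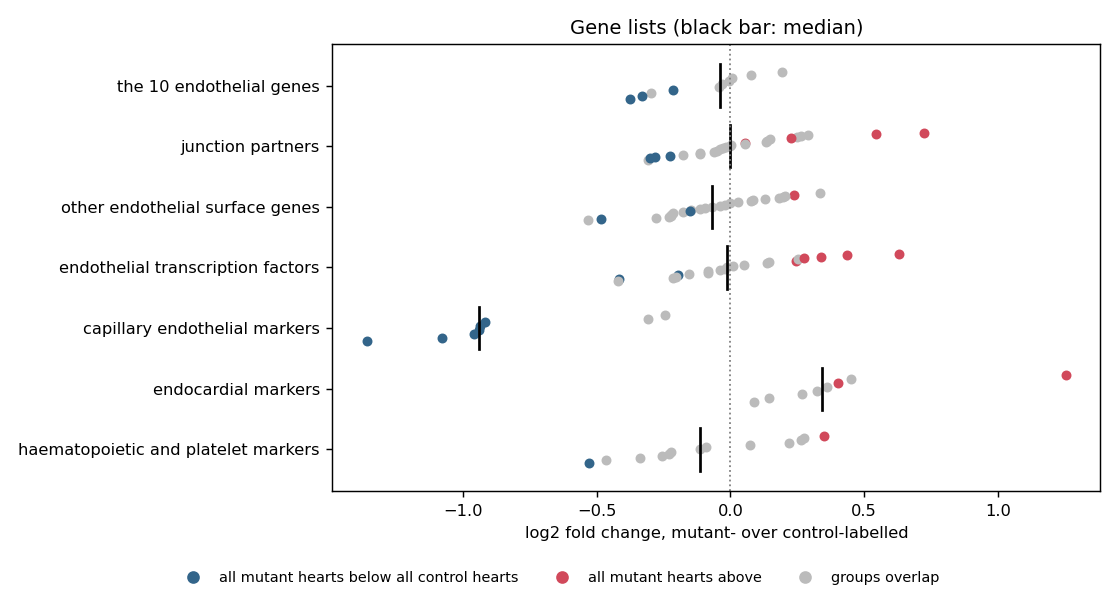
Log2 fold change, mutant-labelled over control-labelled hearts (horizontal axis), of every tested gene in 7 lists (rows), 1 point a gene, with a black bar at the median and color for genes whose groups do not overlap. The 10 endothelial genes lie between -0.38 and 0.19, the capillary markers all below 0 and the endocardial markers all above 0.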

How the data were processed

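RNA from whole hearts at embryonic day 13.5 was sequenced by the authors (NEBNext Ultra RNA libraries, 76 bp paired-end reads). Per the study's methods, the authors mapped the reads with STAR (2.4.2a) to GRCm38 with GENCODE vM6 genes and counted them with summarizeOverlaps. The deposited unit is raw counts per gene, and strand and overlap settings were not stated. Columns of the authors' comparison (fold changes, p-values) were not used, only the gene symbols beside them, which 26306 genes have. Hearts were grouped by label, 3 a group.

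Genes were kept by filterByExpr (minimum count 10, total 15), scaled by TMM and tested with edgeR 4.0.16 (glmQLFit and glmQLFTest, condition as the only term, R 4.3.3), with Benjamini-Hochberg adjustment over 17125 genes and 95% intervals. Levels are TMM-scaled CPM, and levels per kb and positions use GENCODE vM21 exons on GRCm38, to which 45229 gene identifiers matched. Ratios to Cdh5 were tested by exact permutation. Alternatives were other scalings, DESeq2 1.42.0, other filters, leaving out each heart and a replicate block.

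The genes named are the 10, Ino80, members of the gene lists and the 5 genes most like the 10. The members and lists were chosen with earlier results of these data known.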

Additional observations from a re-analysis of the deposited data

How the results depend on the processing

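Over 13 alternatives, 112 of 130 values of the 10 genes kept their direction and their side of the threshold, 15 changed sign and 3 gained the threshold. Pecam1, Esam, Cd34, Fli1 and Egfl7 did not change sign, with Pecam1 at 0.000 without control-labelled replicate 1. With library totals alone as the scaling, the log2 fold change was 0.025 for Cdh5, 0.014 for Erg and 0.048 for Eng, and with every gene of at least 1 count it was 0.002 for Eng. Leaving out single hearts gave -0.129 to 0.079 for Cdh5, -0.549 to 0.010 for Cldn5, -0.110 to 0.157 for Emcn, -0.129 to 0.065 for Erg and -0.169 to 0.108 for Eng.

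DESeq2 called 2 of the 10 lower, and leaving out single hearts called 0 to 1 lower and put 0 to 1 higher at an unadjusted p under 0.05. Over all genes, where edgeR called 0, DESeq2 called 1000 (436 higher, 564 lower), edgeR with every gene of at least 1 count called 603 (262 higher, 341 lower), and leaving out single hearts called 0 to 751, with 751 without control-labelled replicate 1 and 3 without control-labelled replicate 2. The cause was not tested.

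Deviations from the group means of same-numbered hearts had correlations of 0.024, -0.084 and -0.073. No control-labelled heart correlated best with its own number. With 3 hearts a group, these values cannot show whether hearts were paired by litter or batch. With the replicate block, 14 genes were called (1 higher, 13 lower) and the log2 fold change of Eng was 0.015. It changed no other call of the 10 genes. Of 130 list counts at an unadjusted p under 0.05, 34 moved by over 1.5 times or went to or from 0. Leaving out single hearts gave 2 to 6 junction partners (5 with all hearts), 2 to 6 surface genes (4), 1 to 9 transcription factors (8), 0 to 4 blood and platelet markers (2), 2 to 5 red blood cell markers (4), 0 to 5 cardiomyocyte markers (2) and 1 to 6 endocardial markers (1). Precision with 3 hearts a group was lowest for Cldn5, with a 95% interval of -0.87 to 0.28.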
